A study of Arabidopsis thaliana with 8 samples.

Results

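The measurements described here are the response of Arabidopsis thaliana uri mutant roots to iron deficiency, read from 4 of the 8 arrays of the series. They are the 2 arrays labelled uri −Fe and the 2 labelled uri +Fe. The other 4 arrays, 2 of wild-type −Fe and 2 of wild-type +Fe roots, entered the fit and serve for comparison. Each array held total RNA of one biological replicate of roots, and the labels give no line, allele or ecotype beyond "uri mutant" and wild type. All plants grew for 14 days on half-strength B5 medium and then spent 3 days on agar. The +Fe agar held 50 µM Fe(III)-EDTA and the −Fe agar held 300 µM ferrozine, a chelator that binds ferrous iron. The response was described over every probe set that the annotation assigns to exactly 1 gene, 21180 of the 22746 tested, which stand for 21019 genes.

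When iron runs short, Arabidopsis roots acidify the soil, reduce ferric iron and import ferrous iron through IRT1. Genes of this uptake system are switched on by FIT together with its group Ib partners (bHLH38, bHLH39, bHLH100 and bHLH101), and these partners in turn depend on URI and the group IVc factors bHLH34, bHLH104, ILR3 and bHLH115. Roots also secrete coumarins, phenolic compounds that mobilise iron, and lower the transcripts of ferritin, the iron store. FIT, FRO2, bHLH38 and bHLH100 were not analysed here.

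URI (AT3G19860), the mutated gene, gave log2 intensities of 8.52 and 8.62 on the arrays labelled uri −Fe and of 7.84 and 7.64 on the uri +Fe arrays. Wild-type arrays read 8.64 and 8.6 under −Fe and 8.73 and 8.78 under +Fe. The uri +Fe arrays thus stood below all 6 others, whereas the arrays labelled uri −Fe overlapped the wild-type −Fe arrays. Between the iron supplies, URI rose in the uri arrays by a log2 change of 0.83 ± 0.118 (SE, 2 arrays per group, limma adjusted p = 0.00019). The transcript level therefore does not tell the arrays labelled uri −Fe from wild type, and the place of the probes relative to the mutation is not given in the labels. Every direction below rests on the labels.

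With 2 arrays per group, precision is limited by their number. Linear array medians lay between 119.09 and 128.06. The replicates correlated across probe sets with r = 0.9964 for uri −Fe and r = 0.9938 for uri +Fe, the lowest of the 4 groups. Numbers in the sample titles run from 2184 to 2187 for all −Fe arrays and from 2276 to 2279 for all +Fe arrays. The labels do not say what they stand for, and whatever they mark cannot be told apart from the iron supply. Ratios of 3′ to 5′ control probe sets for ubiquitin, a measure of RNA integrity, were 1.57 and 1.59 on the log2 scale for uri −Fe and 1.45 and 1.49 for uri +Fe. Those for actin were 2.56 and 2.25 against 3.21 and 2.41, and those for GAPDH 0.39 and 0.38 against 0.40 and 0.45. Endodermal markers such as CASP1, whose log2 level was between 11.63 and 12.38 on all arrays, show that root tissue was present. They do not show that shoot tissue was absent, and photosynthesis transcripts, which mark it, are described below.

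A large share of the measured transcripts differed between the −Fe and +Fe arrays of the mutant. limma called 7186 single-gene probe sets at an adjusted p under 0.05, which is 33.9% of those tested. Of these, 3255 were higher under −Fe (15.4%) and 3931 lower (18.6%), and the median log2 change over all probe sets was −0.01. These shares are the background against which each list below can be read. Changes of at least 2-fold were found for 634 higher (2.99%) and 503 lower probe sets (2.37%). The larger steps were mostly rises, with 99 probe sets at least 4-fold higher and 18 at least 4-fold lower. The split of the calls depended on the scaling. Centring each array on its median gave 3851 higher and 3210 lower, so that 54.5% of the calls were rises in place of 45.3%. The 2 uri groups did not overlap in 62.1% of all probe sets.

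The largest rise was that of DIR5 (AT1G64160), a dirigent protein gene. Its log2 level was 3.70 and 3.64 under +Fe and 9.37 and 9.63 under −Fe in uri, a change of 5.83 ± 0.147 (adjusted p = 5.17e-10). The uri −Fe arrays stood alone, since wild type read between 3.80 and 4.2 with either iron supply. Its +Fe value was dimmer than 4.73, the lower quartile of the uri +Fe arrays, which leaves the size of this rise uncertain. JRG21, a jasmonate-regulated oxygenase gene, rose by 3.88 ± 0.213 from 5.65 and 5.25 to 9.58 and 9.09. PDF1.4, a defensin gene, rose by 3.53 ± 0.172, and ATL8, a RING-type ubiquitin ligase gene, by 3.51 ± 0.159. The 20 largest rises, several of them described with their groups below, also included the peroxidase gene AT5G64120 (3.26), the wall-remodelling gene XTH24 (3.24), the lipase gene PLA2A (3.17), the amino acid exporter-family gene UMAMIT33 (3.11) and the transcription factor gene AT3G15500 (3.14). All genes named in this paragraph but DIR5 were brighter than the lower quartile under +Fe.

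The largest fall was that of NRT2.1 (AT1G08090), the main high-affinity nitrate importer of roots. In uri its log2 level was 12.14 and 12.00 with iron and 7.29 and 7.27 without, a change of −4.79 ± 0.144 (adjusted p = 1.5e-09). Wild-type arrays lay between 11.55 and 12.11 with and without iron, so the low value was found on both uri −Fe arrays and nowhere else. AT2G41810, which encodes a DUF642 wall protein, fell by 2.89 from 8.42 and 8.18 to 5.37 and 5.44. The chitinase gene AT2G43620 changed by −2.84, but its −Fe level was below the lower quartile (4.71). OCT1, a carnitine transporter gene, fell from 8.19 and 8.27 to 5.67 and 5.65, by 2.56 ± 0.113. Wall genes made up several of the next falls, with EXPA17 at −2.52, XTH31 at −2.37, EXPA15 at −2.20 and EXPB3 at −2.19.

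**Figure D1:**
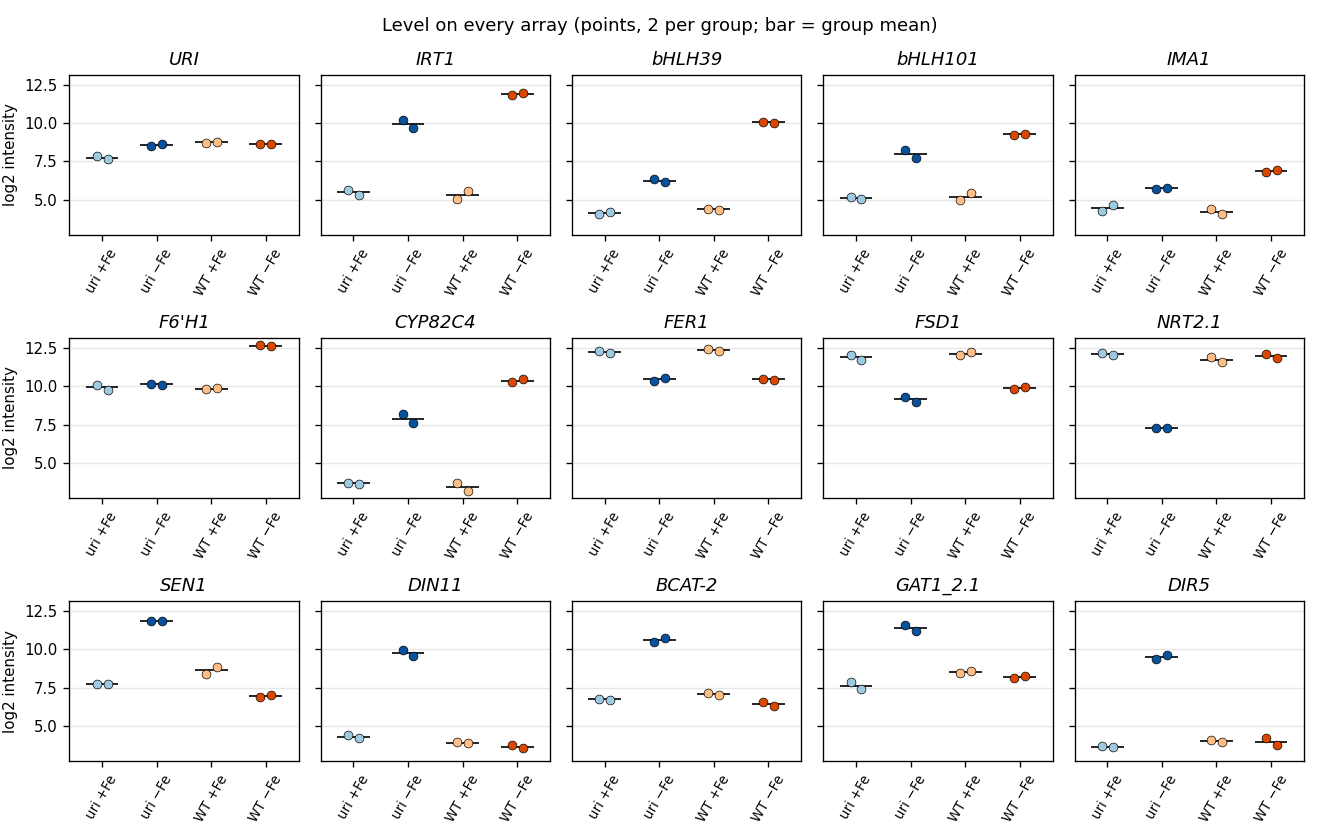
Log2 intensity (y axis) of 15 genes on each of the 8 arrays. Points are arrays, 2 per group, and bars are group means. IRT1 and bHLH101 rise under −Fe in uri from about 5 but stay below the wild-type −Fe arrays, while SEN1, DIN11, BCAT-2, GAT1_2.1 and DIR5 are high and NRT2.1 is low on the uri −Fe arrays alone.

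Of 14 measured iron regulators, 7 rose in uri, 1 fell and 6 were not called (median 0.37). bHLH101 (AT5G04150) moved from log2 levels of 5.16 and 5.04 under +Fe to 8.25 and 7.73 under −Fe, a rise of 2.89 ± 0.173 (adjusted p = 2.4e-07). The groups were far apart, and the wild-type −Fe arrays were higher still at 9.25 and 9.28. bHLH39 (AT3G56980) read 4.11 and 4.19 under +Fe, below the lower quartile, and 6.34 and 6.14 under −Fe. Its rise of 2.1 ± 0.117 compares with wild-type −Fe levels of 10.07 and 10.03, and the responses of the genotypes differed by −3.57 ± 0.166 (adjusted p = 7.56e-08). IMA1, which encodes a peptide that promotes iron uptake, rose by 1.26 ± 0.152 from 4.29 and 4.67, again below the lower quartile, to 5.72 and 5.76.

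MYB10 and MYB72 encode related factors needed for the coumarin response. MYB10 rose from 4.73 and 4.81 to 5.33 and 5.49, by 0.64 ± 0.114, while the wild-type −Fe arrays read 8.83 and 8.85. MYB72 was at 4.60 and 4.64 under +Fe and at 4.74 and 4.78 under −Fe in uri, a difference of 0.14 ± 0.161 (adjusted p = 0.559) with a 95% interval from −0.21 to 0.49. Wild-type −Fe arrays stood at 9.77 and 9.98, and the genotypes' responses differed by −5.25 ± 0.228. Among the group IVc factors, bHLH104 rose by 0.66 ± 0.113, ILR3 changed by 0.40 and bHLH34 by −0.53. The ILR3 call was lost without uri −Fe replicate 1, uri −Fe replicate 2 or uri +Fe replicate 2. Leaving out uri −Fe replicate 1 (−0.41) or uri +Fe replicate 2 (−0.28) ended the bHLH34 call, as happened with arrays centred on their median or quantile-normalized. PYE, a bHLH repressor, differed by −0.25 ± 0.125 (adjusted p = 0.155). BTS, an E3 ligase that acts against the group IVc factors, differed by 0.34 ± 0.147 (adjusted p = 0.0982), although it was called without uri −Fe replicate 2 (0.57) and with arrays centred on their median (0.41). In 9 of the 14 regulators the response in uri was lower than in wild type by the test of the difference, and in 2, URI and bHLH104, it was higher.

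IRT1 (AT4G19690), the main root importer of ferrous iron, had log2 levels of 5.63 and 5.34 on the uri +Fe arrays and of 10.22 and 9.70 on the uri −Fe arrays. This rise of 4.48 ± 0.193 was 22.3-fold (adjusted p = 2.19e-08). Both uri −Fe arrays were below both wild-type −Fe arrays, at 11.85 and 11.93, and the responses differed by −2.09 ± 0.273 (adjusted p = 0.000201). NRAMP1, a manganese and iron importer gene, went the other way in this comparison. It rose in uri from 10.66 and 10.60 to 12.19 and 12.24, by 1.59 ± 0.12, against a wild-type difference of 0.35, and the responses differed by 1.23 ± 0.17 (adjusted p = 0.0003). AHA7, a plasma membrane proton pump gene, fell from 8.91 and 8.81 to 7.71 and 7.44, by 1.29 ± 0.14, while its wild-type change was 1.25. IRT2 differed by 0.17 ± 0.209 (adjusted p = 0.592). AHA2, the main acidifying pump, changed by −0.41 ± 0.115, a call lost when uri −Fe replicate 2 (−0.32) or uri +Fe replicate 1 (−0.37) was left out.

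Transporters that move metals into and out of the vacuole mostly rose, 8 of 11 with 2 lower (median 0.60). Leaving out uri −Fe replicate 1, or else uri +Fe replicate 1, reduced the rises to 5. MTP3, a vacuolar zinc importer gene, rose by 1.95 ± 0.131 from 7.36 and 7.27 to 9.39 and 9.14. FPN2, a vacuolar ferroportin gene, rose from 8.59 and 8.44 to 9.95 and 9.83, by 1.38 ± 0.116. ZIF1, which loads the chelator nicotianamine into the vacuole, rose by 0.95 ± 0.119 in uri and by 0.82 in wild type. The fall was in VTL1 and VTL2, genes of vacuolar iron importers, at −1.16 ± 0.122 and −0.66 ± 0.124. MTP8 (0.61, with a +Fe level below the lower quartile) and HMA3 (0.60) were among the 8, but neither was called without uri −Fe replicate 1 (0.46 and 0.44), MTP8 not without uri +Fe replicate 2 (0.44) and HMA3 not without uri +Fe replicate 1 (0.42).

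Genes of iron distribution within the plant were split, with 3 of 14 higher, 5 lower and 6 not called (median −0.15). The 5 falls became 3 without uri −Fe replicate 1, uri −Fe replicate 2 or uri +Fe replicate 2. YSL2, which transports iron bound to nicotianamine, fell from 9.67 and 9.62 to 8.08 and 8.15, by 1.53 ± 0.13. The nicotianamine synthase genes NAS2 and NAS1 fell by 0.89 ± 0.117 and 0.49 ± 0.114. NAS1 read 9.46 and 9.40 in uri −Fe against 11.67 and 11.50 in wild-type −Fe roots, and its responses differed by −3.09 (adjusted p = 1.69e-07). OPT3, a phloem iron transporter gene, rose by 0.60 ± 0.135 from 5.60 and 5.36 to 6.17 and 5.99, whereas wild-type −Fe arrays read 9.17 and 9.18. YSL3 rose by 0.64 ± 0.12.

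All 4 ferritin genes fell in uri (median −1.25). FER1 (AT5G01600) went from log2 levels of 12.31 and 12.19 to 10.33 and 10.56, a change of −1.81 ± 0.122 (adjusted p = 6.34e-07). Its wild-type levels were 12.42 and 12.31 with iron and 10.46 and 10.43 without, so the −Fe arrays of the genotypes overlapped. FER3 fell by 1.38 ± 0.137, FER2 by 1.12 ± 0.177 and FER4 by 0.71 ± 0.114. limma's test of the difference between genotypes called none of the 4, and none passed an unadjusted p under 0.05. For FER1 that difference was 0.11 with a 95% interval from −0.26 to 0.49. FSD1, the iron superoxide dismutase gene, fell from 12.06 and 11.73 to 9.28 and 9.01, by 2.75 ± 0.144. CSD1 and CCS, the copper superoxide dismutase and its copper chaperone, rose by 0.60 ± 0.114 and 0.65 ± 0.114, the 2 rises among 10 copper genes.

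Among 14 genes of iron-containing enzymes, 2 rose and 5 fell (3 fell when uri −Fe replicate 1 or uri +Fe replicate 2 was left out). Besides FSD1, the falls included FD3, a root ferredoxin gene (−0.60 ± 0.114), and GLU2, a ferredoxin-dependent glutamate synthase gene (−0.61 ± 0.129). The catalase gene CAT3 rose by 0.80 ± 0.113 and the lipoxygenase gene LOX1 by 0.81 ± 0.12. Iron–sulfur and haem synthesis genes gave 5 rises and 1 fall of 17. That count rested on the uri −Fe arrays, with 1 rise without replicate 1 and 3 without replicate 2, and it was also 3 without either wild-type −Fe array. HEMA2, a gene for the first step of tetrapyrrole synthesis, rose by 0.84 ± 0.136.

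Coumarin genes moved in both directions. F6'H1 (AT3G13610), which makes the coumarin scaffold, read 10.09 and 9.78 under +Fe and 10.16 and 10.08 under −Fe in uri. The difference of 0.19 ± 0.128 was not called (adjusted p = 0.298), and the wild-type −Fe arrays stood well apart at 12.67 and 12.62. CYP82C4 (AT4G31940), which makes sideretin, rose from 3.67 and 3.66, below the lower quartile, to 8.17 and 7.62, by 4.23 ± 0.186. S8H, which makes fraxetin, rose by 0.84 ± 0.138 from 4.99 and 5.39 to 6.01 and 6.03, against 10.46 and 10.45 in wild-type −Fe roots. ABCG37, a coumarin exporter gene, rose by 0.96 ± 0.116. BGLU42, a glucosidase gene that releases stored coumarins, fell from 8.67 and 9.0 to 8.21 and 8.26, by 0.60 ± 0.128, while wild-type −Fe arrays read 11.80 on both. COSY, a coumarin synthase gene, fell by 0.52 ± 0.115. In all, 3 of 8 rose and 4 fell (2 fell without uri −Fe replicate 2), and in all 8 the response in uri was below that in wild type by the test of the difference.

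Transcripts of the general phenylpropanoid pathway, which supplies coumarins, lignin and flavonoids, were mostly lower. Of 17 genes 11 fell and the others were not called (median −0.46). PAL1, the entry enzyme, moved from 11.73 and 11.86 to 10.86 and 10.82, a fall of 0.95 ± 0.115. Both uri −Fe values were below every other array, the wild-type −Fe ones being highest at 12.60 and 12.52. The CoA ligase genes 4CL3, 4CL1 and 4CL5 fell by 1.85 ± 0.229, 0.94 ± 0.13 and 0.84 ± 0.113. Flavonoid and light-response genes fell in 6 of 12 cases. FLS1, the flavonol synthase gene, went from 11.35 and 11.55 to 9.68 and 9.99, by −1.61 ± 0.131, and F3'H and CHI fell by 1.43 ± 0.141 and 1.36 ± 0.138. For FLS1 the wild-type order was reversed, with 9.47 and 9.45 under +Fe and 10.99 and 11.03 under −Fe. The uri +Fe arrays were thus the highest of the series for this gene. The response was lower in uri than in wild type for 12 of the 17 phenylpropanoid and 9 of the 12 flavonoid and light genes.

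**Figure D2:**
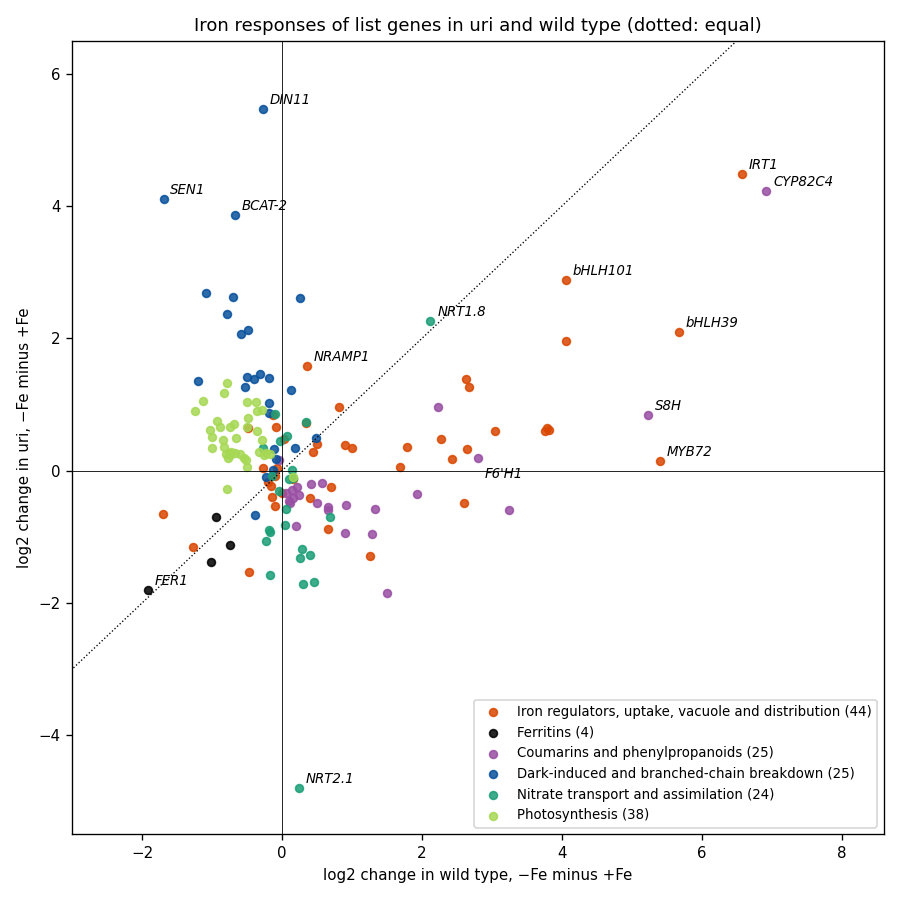
Log2 change between −Fe and +Fe in wild type (x axis) and in uri (y axis) for genes of 6 groups, with the number of genes in brackets. Points are genes, and the dotted line marks equal responses. IRT1 (6.57 in wild type, 4.48 in uri), CYP82C4 and bHLH39 lie below the line, FER1 lies near it, and DIN11, SEN1 and BCAT-2 lie far above it at wild-type changes below 0.

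Genes known to respond to darkness and sugar starvation rose together. All 11 measured dark-induced genes were called higher (median 1.41), also when any 1 array was left out. DIN11 (AT3G49620), an oxygenase gene, moved from 4.40 and 4.24, below the lower quartile, to 10.00 and 9.56, a rise of 5.46 ± 0.148. SEN1 (AT4G35770), a senescence marker, read 7.73 and 7.75 under +Fe and 11.85 and 11.83 under −Fe. Its rise of 4.1 ± 0.146 was 17.2-fold (adjusted p = 5.93e-09), and both wild-type −Fe arrays were the lowest of the series, at 6.88 and 7.02. BGLU30, a glucosidase gene, rose by 2.61 ± 0.128. ASN1, the asparagine synthetase gene induced in the dark, rose from 9.54 and 9.72 to 11.02 and 10.95, by 1.35 ± 0.121, whereas it changed by −1.21 in wild type. DIN10, a raffinose synthase gene, and the dormancy-associated genes DRM1 and DRM2 rose by 1.39, 1.26 and 1.39. The responses differed between genotypes, higher in uri, for all 11.

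SnRK1 is a kinase that reports low energy, and bZIP factors and class II trehalose-phosphate synthase (TPS) genes act with it. Of 15 such genes 9 rose, 1 fell and 5 were not called (median 0.71). TPS8 rose from 8.80 and 8.19 to 10.66 and 10.42, by 2.04 ± 0.18, and TPS11 by 1.86 ± 0.132. AKINBETA1, a regulatory subunit, rose by 1.39 ± 0.122, with both uri −Fe arrays above all 6 others. The catalytic subunits KIN10 and KIN11 differed by −0.18 ± 0.117 and −0.05 ± 0.123 and were not called. TPS5 fell by 1.08 ± 0.134, from 9.89 and 10.18 to 8.96 and 8.95. The bZIP genes bZIP63, bZIP25 and bZIP9 rose by 1.25, 0.86 and 0.71.

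Most transcripts for the breakdown of branched-chain amino acids, a pathway that feeds electrons to mitochondria, were higher. Of 16 genes 11 rose, 1 fell and 4 were not called (median 0.94). BCAT-2, an aminotransferase of the opening step, went from 6.79 and 6.70 to 10.51 and 10.72, a rise of 3.87 ± 0.13 (adjusted p = 4.21e-09). No wild-type array exceeded 7.19. BCE2 and E1B1, subunits of the oxo acid dehydrogenase that follows, rose by 2.68 ± 0.118 and 2.12 ± 0.117. IVD, the isovaleryl-CoA dehydrogenase gene, rose from 9.09 and 8.70 to 11.58 and 11.46, by 2.63 ± 0.141. MCCA and MCCB, both subunits of methylcrotonyl-CoA carboxylase, rose by 2.37 ± 0.11 and 2.06 ± 0.121. ETFQO, which passes the electrons on, rose by 1.01 ± 0.117. The gene that fell, E1A2, changed by −0.67 ± 0.111. For 9 of the 16 the response was higher in uri than in wild type by the test of the difference.

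Of 16 genes of amino acid metabolism 7 rose, 8 fell and 1 was not called. GAT1_2.1, a glutamine amidotransferase-domain gene, rose from 7.88 and 7.41 to 11.57 and 11.23, by 3.76 ± 0.163. The glutamate dehydrogenase genes GDH1 and GDH2 rose by 2.14 ± 0.129 and 1.98 ± 0.115. GDH2 stood at 10.90 and 10.72 under +Fe and at 12.82 and 12.75 under −Fe, above all wild-type arrays (10.61 to 11.11). LKR, of lysine breakdown, and the proline dehydrogenase genes ProDH2 and ERD5 rose by 1.26, 1.20 and 0.99. ASN1, described above, also rose. The cytosolic glutamine synthetase genes GLN1;1, GLN1;4 and GLN1;3 fell by 0.75, 0.67 and 0.66, and the asparagine synthetase genes ASN2 and ASN3 by 0.91 and 0.73.

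Sugar transporter genes rose in 9 of 17 cases and fell in 2 (median 0.40). SWEET12, a sucrose exporter gene, went from 7.78 and 8.08 to 10.98 and 11.15, by 3.14 ± 0.141, and SWEET11 rose by 2.29 ± 0.185. The hexose importer genes STP14, STP4 and STP1 rose by 1.87 ± 0.158, 1.16 ± 0.115 and 1.11 ± 0.115. SWEET13 and SWEET14 went the other way, at −1.54 ± 0.133 and −1.26 ± 0.143, the latter with a −Fe level below the lower quartile. Cell wall glycosidase genes rose in 5 of 8 cases and fell in 2. Measured from each gene's uri +Fe mean, wild-type +Fe roots already had list medians of 0.85 and 1.07. Those of uri −Fe roots, 1.23 and 0.89, overlapped them, while wild-type −Fe roots gave 0.28 and 0.32. BXL1, a xylosidase gene, rose by 2.53 ± 0.132 from 8.86 and 8.51 to 11.23 and 11.19, and the galactosidase genes BGAL2 and BGAL4 by 1.89 ± 0.149 and 1.29 ± 0.138. Autophagy genes rose in 6 of 12 cases, all of the ATG8 family, led by ATG8F (0.88 ± 0.163) and ATG8E (0.81 ± 0.171). Without either uri −Fe array that number was 3.

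**Figure D3:**
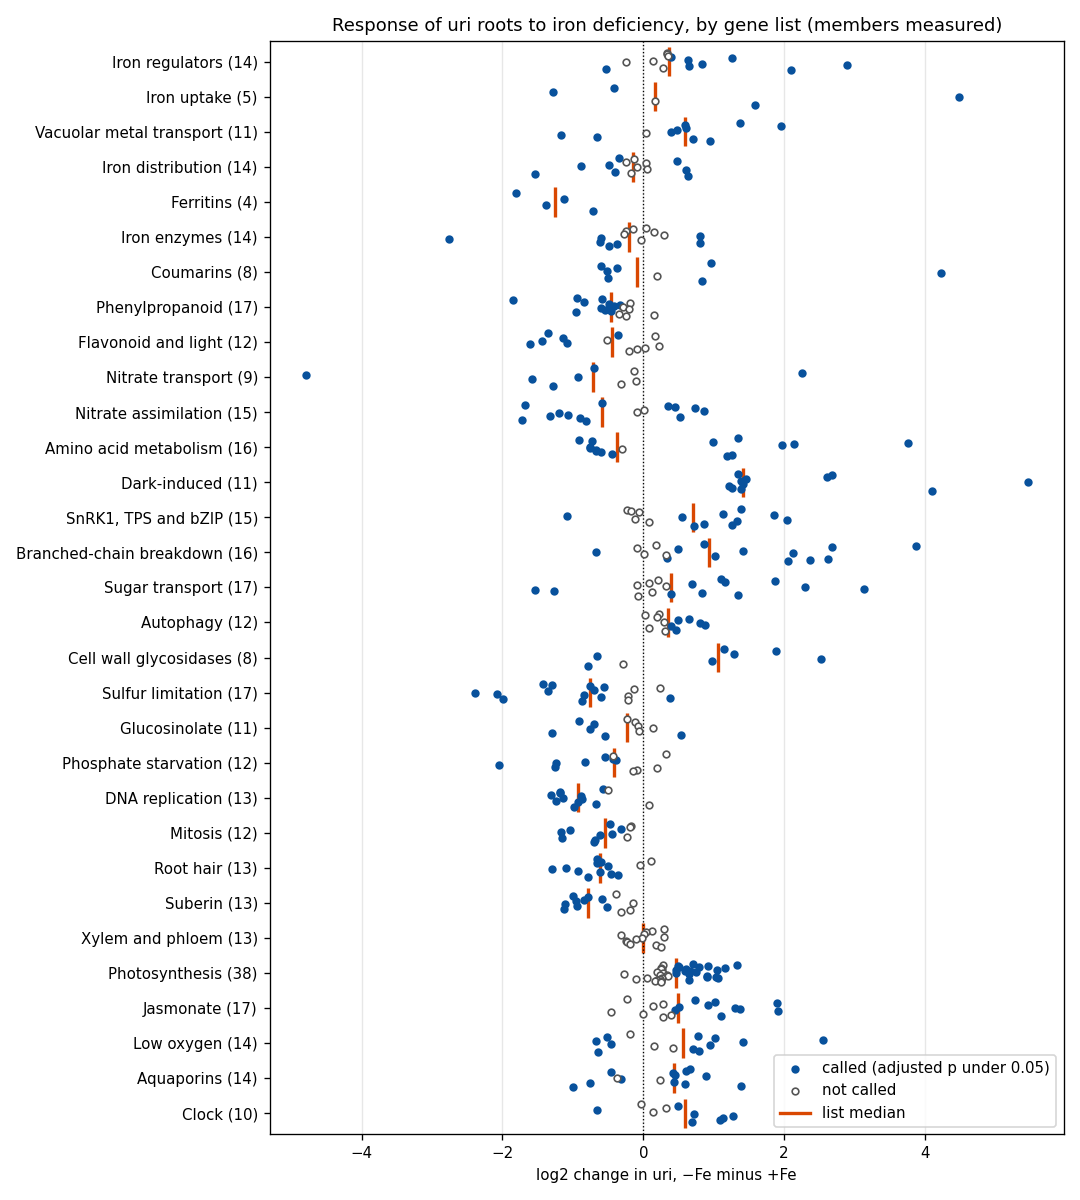
Log2 change in uri (x axis, −Fe minus +Fe) of every measured member of 31 gene lists. Filled points were called, open points were not, orange bars are list medians and the dotted line is the median of all single-gene probe sets, −0.01. All 11 dark-induced and all 4 ferritin genes are filled and on one side, and no xylem and phloem gene is filled.

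Of 9 nitrate transporter genes 5 fell, 1 rose and 3 were not called, and of 15 assimilation and nitrate-signalling genes 8 fell, 5 rose and 2 were not called. NRT3.1, the partner protein of NRT2.1, fell from 11.87 and 11.71 to 10.56 and 10.46, by 1.28 ± 0.12. NRT2.4, another high-affinity transporter gene, fell by 1.57 ± 0.15 and the dual-affinity NRT1.1 by 0.70 ± 0.116. NIR1, the nitrite reductase gene, went from 11.98 and 11.87 to 10.68 and 10.51, by −1.33 ± 0.116. The nitrate reductase genes NIA1 and NIA2 fell by 1.19 ± 0.131 and 1.07 ± 0.116. Genes that supply reductant in the root plastid fell further, RFNR2 by 1.72 ± 0.128 and G6PD3 by 1.68 ± 0.118. In each of NRT3.1, NIR1, NIA1, RFNR2 and G6PD3 both uri −Fe arrays were the lowest of the 8.

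The rise among the transporters was that of NRT1.8, which takes nitrate back from the xylem. Its level moved from 6.01 and 6.16 to 8.37 and 8.32, by 2.26 ± 0.122 (adjusted p = 1.04e-07), next to 2.12 in wild type, and the difference of 0.14 ± 0.173 was not called (adjusted p = 0.655). LBD38 and HRS1, transcription factors of nitrogen signalling, rose by 0.86 ± 0.148 and 0.74 ± 0.147. Of the assimilation and signalling genes, 8 responded lower in uri than in wild type and 2 higher.

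Genes that mark sulfur limitation fell in 12 of 17 cases and rose in 1 (median −0.75). LSU2 went from 8.50 and 8.61 to 5.71 and 6.60, by −2.39 ± 0.263, and SDI1 from 7.65 and 7.87 to 5.53 and 5.83, by −2.08 ± 0.148. SULTR2;1, a vascular sulfate transporter gene, fell by 2.00 ± 0.163, and APR1 and APR2, adenosine phosphosulfate reductases, by 1.42 ± 0.125 and 1.29 ± 0.178. For LSU2, SDI1, SULTR2;1, APR1 and APR2 the uri +Fe arrays were also above both wild-type +Fe arrays, at 10.78 and 10.94 against 9.80 and 9.89 for APR1. The rise, SULTR1;2 at 0.39, was not called without uri −Fe replicate 1 (0.30), uri +Fe replicate 1 (0.38) or uri +Fe replicate 2 (0.39). The response was lower in uri than in wild type for 14 of the 17. Glucosinolate genes, which use reduced sulfur, fell in 5 of 11 cases, among them MYB34 (−1.30 ± 0.138) and CYP79B2 (−0.91 ± 0.137) of the indolic branch and MYB28 (−0.76 ± 0.114) of the aliphatic branch.

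Phosphate starvation genes fell in 7 of 12 cases (median −0.42). RNS1, a ribonuclease gene, fell by 2.04 ± 0.273 from 8.08 and 8.04 to 6.17 and 5.86. SPX1, a phosphate sensor gene, and PPCK1, a kinase gene for phosphoenolpyruvate carboxylase, each fell by 1.25 (SE 0.134 and 0.122). For SPX1 the difference from the wild-type response, −0.27, was not called, and for PPCK1 it was −1.79 (adjusted p = 1.88e-05), with a wild-type change of 0.55.

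Growth-related genes were lower. Of 13 DNA replication genes 11 fell (median −0.92), and the other 2 were not called. PCNA1, the replication clamp gene, moved from 9.12 and 9.17 to 7.84 and 7.97, a fall of 1.24 ± 0.114 (adjusted p = 6.87e-06), and the wild-type arrays all lay between 8.74 and 8.84. The helicase genes MCM4, MCM2, MCM3 and MCM7 fell by 1.31, 1.18, 1.18 and 1.15. Of 12 mitosis genes 9 fell (median −0.55), among them the cyclin genes CYCB1;1 (−1.17 ± 0.112) and CYCA1;1 (−1.04 ± 0.115) and the kinesin gene HIK (−1.15 ± 0.14). In whole roots, fewer cells of a type and less RNA per cell cannot be told apart. The summed linear intensity of the DNA replication genes was 2375 and 2559 in uri −Fe roots, against 4288 and 4625 in uri +Fe roots, with wild type between 3560 and 3817. The response was lower in uri than in wild type for 10 of the 13.

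The cytosolic ribosomal protein genes, a family taken up after its values were seen, fell together: 112 of 153 were lower and 1 higher (median −0.53). Their wild-type median was −0.18, with 3 called lower. By the test of the difference the response was lower in uri for 33 of the 153 and higher for 2. Expansins, which loosen cell walls, were chosen likewise. Of 28 measured 15 fell and 2 rose (median −0.65), with EXPA17 moving from 8.68 and 8.50 to 5.89 and 6.23. Xyloglucan endotransglucosylase (XTH) genes gave 15 falls and 6 rises among 32. XTH31 fell from 11.74 and 11.68 to 9.34 on both arrays, by 2.37 ± 0.111, while it read 12.43 and 12.51 in wild-type −Fe roots. XTH24 stood at the other end, rising from 9.60 and 9.24 to 12.63 and 12.68.

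Root hair markers fell in 11 of 13 cases (median −0.61). PRP1, a wall protein gene of root hairs, fell by 1.29 ± 0.151 from 9.72 and 9.63 to 8.36 and 8.41, and LRX1 fell by 1.09 ± 0.131. Suberin genes fell in 9 of 13 cases (median −0.78), among them KCS2 (−1.13 ± 0.12) and FAR4 (−1.11 ± 0.124), which elongate and reduce fatty acids, and ABCG20 (−1.0 ± 0.159), an exporter. Summed linear intensities were 4716 and 4981 for root hair and 5312 and 4444 for suberin markers on the uri −Fe arrays, against 8685 and 7524, and 8474 and 7654, on the uri +Fe arrays. The other tissue markers did not follow. limma called none of 13 xylem and phloem genes, of which 3 passed an unadjusted p under 0.05, and their median was 0.00. Centring the arrays on their median gave 2 rises, and quantile normalization or adding 16 before the logarithm gave 1. Of 10 Casparian strip genes, CASP5 (0.64 ± 0.149) and MYB36 (0.58 ± 0.138) rose, the latter not without uri −Fe replicate 1 (0.46), and GSO1 fell by 0.38, a call lost without any of uri −Fe replicate 1 (−0.48), uri −Fe replicate 2 (−0.28), uri +Fe replicate 1 (−0.27) and either wild-type −Fe array (−0.38).

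Photosynthesis transcripts, which also mark any shoot or green tissue in the samples, rose in 20 of 38 cases, and the other 18 were not called (median 0.46). GAPA moved from 9.14 and 9.09 to 10.50 and 10.38, by 1.32 ± 0.122, and LHCB4.1 from 9.19 and 9.01 to 10.37 and 10.17, by 1.17 ± 0.126. Their summed linear intensity was 17324 and 15789 in uri −Fe roots, against 11689 and 10775 in uri +Fe roots. Wild-type arrays ran the other way, with 8391 and 8272 under −Fe and 12189 and 13346 under +Fe, and the response was higher in uri for 31 of the 38. None of the 38 was at 0 on any array, but RMA gives every probe set an intensity above 0. A level above 0 therefore does not show that a transcript was present. The part of this shift in the sugar, dark-response and nitrogen results was not tested. Transcripts of the plastid genome, chosen after their values were seen, rose in 11 of 72 cases, and 61 were not called (median 0.15). That share is close to the 15.4% of all single-gene probe sets called higher in uri.

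**Figure D4:**
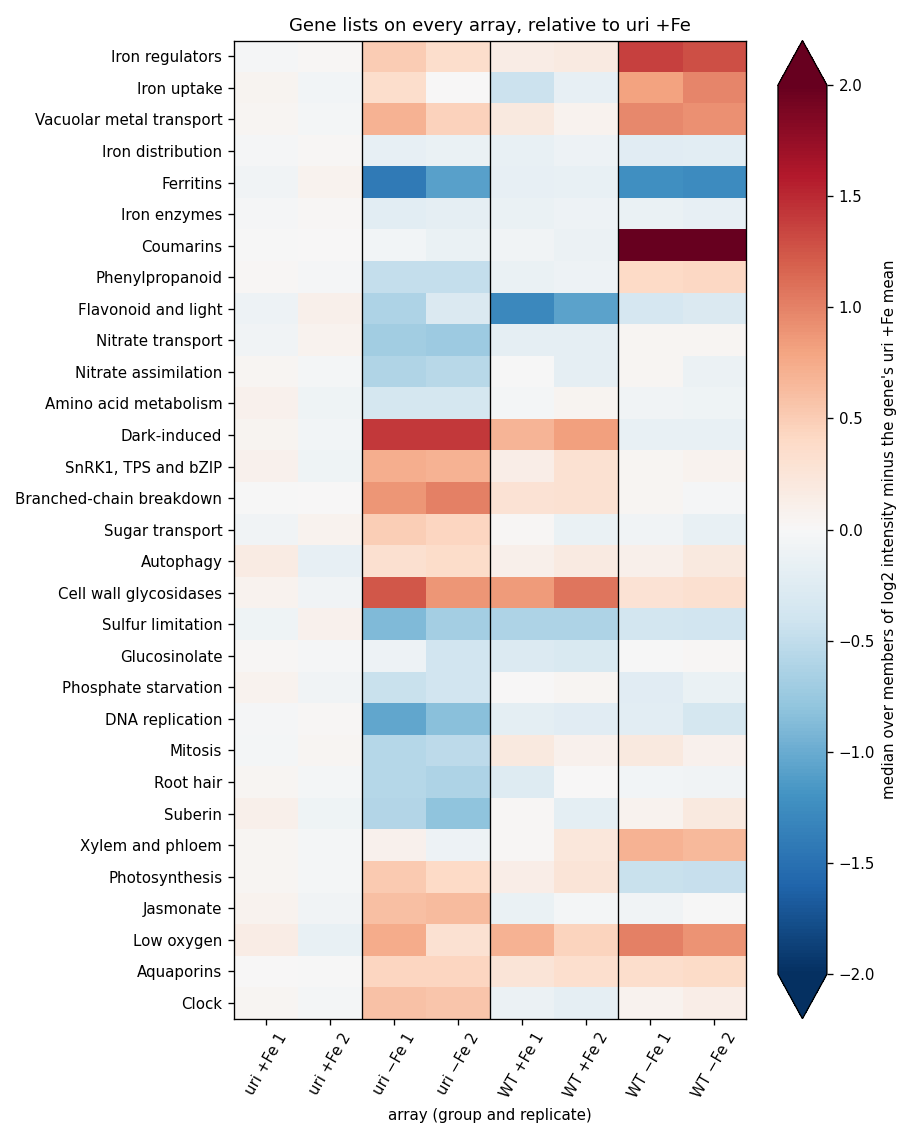
Colour gives the median over each list's members of log2 intensity minus the gene's own uri +Fe mean, for 31 lists (rows) on each of the 8 arrays (columns, by group and replicate). The uri −Fe arrays are close for some lists, with dark-induced genes at 1.42 on each, ferritins at −1.42 and −1.08 and DNA replication genes at −1.04 and −0.83, and apart for others, such as low-oxygen genes at 0.74 and 0.30. Coumarins reach 2.35 and 2.27 on the wild-type −Fe arrays only.

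Jasmonate genes rose in 10 of 17 cases, and the other 7 were not called (median 0.50). The repressor genes JAZ9 and JAZ10 rose by 1.91 ± 0.14 and 1.91 ± 0.221, JAZ9 from 5.32 and 4.95 to 6.94 and 7.15. MYC2, the central factor of the pathway, rose by 1.1 ± 0.159, while the synthesis genes OPR3 and AOC3 differed by 0.28 ± 0.117 and −0.23 ± 0.17 without a call. OPR3 was called with arrays centred on their median or with 16 added before the logarithm. Of 14 low-oxygen genes 7 rose and 4 fell. Relative to the uri +Fe mean, the list median was 0.74 and 0.3 on the uri −Fe arrays and 0.69 and 0.44 on the wild-type +Fe arrays. The falls included HRE2, SUS4 and HB1, whose calls were lost without uri +Fe replicate 1 (−0.523, −0.405 and −0.298). HRE1, an ethylene response factor gene of hypoxia, rose by 2.55 ± 0.161 from 9.24 and 8.85 to 11.76 and 11.43, and LBD41 by 1.41 ± 0.163, whereas ADH1, the classical hypoxia gene, differed by −0.19 ± 0.125 (adjusted p = 0.299).

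Among ethylene and methionine cycle genes, 4 of 13 rose and 2 fell. EIN3, the ethylene master factor, rose by 0.70 ± 0.112, and ACS6, of ethylene synthesis, fell by 0.94 ± 0.143. Clock genes rose in 6 of 10 cases and fell in 1. Among the 6 was RVE8, which rose by 1.091 on the probe set used. Its other single-gene probe set differed by −0.24 and was not called (limma adjusted p = 0.299). Alternatives other than left-out arrays gave 5 to 7 rises. PRR7 rose by 1.28 ± 0.117 from 7.46 and 7.58 to 8.89 and 8.72, RVE1 by 1.13 ± 0.117 and TOC1 by 0.70 ± 0.123, whereas GI fell by 0.66 ± 0.123. The labels give no harvest time. Aquaporin genes gave 8 rises and 4 falls of 14, with the vacuolar TIP2;3 at 1.38 ± 0.147 and TIP4;1 at −1.0 ± 0.126.

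Copper genes gave 2 rises, named above with FSD1, and 2 falls among 10. ZIP2 and the copper chaperone gene CCH fell by 1.12 ± 0.136 and 0.79 ± 0.146. Of 12 zinc genes 5 rose and 1 fell, but single arrays decided the 5. The number was 3 without uri −Fe replicate 1, 1 without uri −Fe replicate 2, 2 without uri +Fe replicate 2 and 3 without either wild-type −Fe array. HMA4, which loads zinc into the xylem, rose from 10.01 and 10.16 to 11.14 and 11.12, by 1.05 ± 0.114. HMA2, a pump of the same type, fell from 7.92 and 8.01 to 6.52 and 6.18, by 1.62 ± 0.131. Of 8 heat shock genes HSFA2 was called (0.49 ± 0.16), but not without uri −Fe replicate 1 (0.57), uri −Fe replicate 2 (0.40) or uri +Fe replicate 2 (0.27). The dirigent gene DIR6 and the lignan reductase genes PRR1 and PRR2 differed by −0.18, 0.20 and 0.01 and were not called, although DIR6 was without uri +Fe replicate 2 (−0.42).

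More probe sets were called in the mutant than in wild type, and the responses overlapped in part. The wild-type comparison called 749 probe sets higher (3.54%) and 467 lower (2.2%). Its total of 1216 fell to 461 or 410 when wild-type −Fe replicate 1 or 2 was left out, and to 611 or 766 when wild-type +Fe replicate 1 or 2 was. The 290 probe sets higher in both genotypes were 38.7% of those higher in wild type, next to 15.4% of all probe sets higher in uri. They were 8.91% of those higher in uri, next to 3.54% of all probe sets higher in wild type. The 165 lower in both were 35.3% of those lower in wild type, next to 18.6% of all lower in uri. They were 4.2% of those lower in uri, next to 2.2% of all lower in wild type. Another 156 were higher in wild type and lower in uri, 20.8% of those higher in wild type next to 18.6% of all lower in uri. A further 165 were lower in wild type and higher in uri, 35.3% of those lower in wild type next to 15.4% of all higher in uri. Across probe sets, which are not independent replicates, the 2 responses correlated with r = 0.111.

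The test of the difference itself called 4457 probe sets, with the response higher in uri for 2096 (9.9%) and lower for 2361 (11.1%). Leaving out wild-type −Fe replicate 1 or 2 gave totals of 2785 and 2730. Of the 634 probe sets at least 2-fold higher in uri, 591 were among these calls, and 364 had a wild-type change below 0, a share of 57.4% next to 56.4% of all probe sets. Of the 503 at least 2-fold lower, 453 were among the calls of a difference, and 192 had a wild-type change above 0, a share of 38.2% next to 43.6% of all. The 634 and the 503 were chosen by the uri change, which is part of the tested difference. Many of the 591 and 453 calls follow from that choice.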

How the data were processed

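Root RNA was hybridised to 8 one-colour expression arrays, 2 per group. The authors deposited 1 intensity per probe set and array on a linear scale, made with RMA (version not stated) per the submitters' processing notes. Log2 of these deposited intensities was taken here, and no further normalization was applied. The 64 control probe sets were left out, and limma 3.58.1 in R 4.3.3 fitted 1 mean per group to the remaining 22746 on all 8 arrays. The residual degrees of freedom were 4 and the prior ones 8.32. Contrasts were −Fe minus +Fe within uri, the same within wild type, and their difference. P-values were two-sided and Benjamini-Hochberg adjusted over all 22746, with calls at an adjusted p under 0.05. Each ± is a standard error, and all adjusted p-values are limma's.

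Gene names came from the deposited annotation and RefSeq, 44 annotation lines being joined by another identifier. A gene with several probe sets was read by the one with the highest mean. Of 533 listed genes, 486 had a single-gene probe set. Members and lists were chosen with earlier results of these data known. Named genes are a set of iron, nitrate and dark-response anchors, the 20 largest rises and 20 largest falls, the 10 largest differences from wild type, and per list up to 6 members called in its main direction and 3 in the other. Members named without a call or for tissue identity, and ILR3, DIN10, DRM1, DRM2, bZIP9, bZIP25, ETFQO, LKR, ProDH2 and ERD5 where they fall outside this rule, were added after their values were seen.

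Data were simulated with 200 of 22746 probe sets changed in uri and none in wild type, and with independent normal noise. For the uri contrast, 57% of those changed 1.5-fold, and 100% of those changed 2-fold or 4-fold, were recovered. The false shares among calls were 6.56%, 9.5% and 4.31%. For the difference between genotypes the recovery was 5.5%, 91% and 100%, with false shares of 21.4%, 8.08% and 8.68%. In the data themselves 33.9% of single-gene probe sets were called in uri, so these rates hold for the simulated setting only. Alternatives covered scaling, dim probe sets, an offset of 16, the variance model, the arrays in the fit, a replicate block and each left-out array. Replicate numbers gave a same-number correlation of 0.155 between the uri groups.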

Additional observations from a re-analysis of the deposited data

Results flagged for a closer look

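The response to iron supply differed between the genotypes for 4457 single-gene probe sets by limma's test of the difference. Values below are the log2 response in uri minus that in wild type. Among the iron regulators the difference was 0.966 for URI, −3.573 for bHLH39, −1.166 for bHLH101, −1.415 for IMA1, −0.955 for PYE and −5.252 for MYB72. For BTS it was −0.658, and this call was lost with arrays centred on their median (−0.604) and without any one of 7 of the 8 arrays, uri −Fe replicate 1 being the exception. IRT1 differed by −2.09. In the coumarin pathway and its supply, the difference was −2.615 for F6'H1, −2.691 for CYP82C4, −4.389 for S8H, −3.845 for BGLU42 and −3.353 for 4CL3.

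Responses far below wild type were also found for NRT2.1 (−5.033), the amino acid transporter gene AT5G38820 (−3.789), XTH31 (−3.44), the glycosyltransferase gene AT2G22590 (−3.387) and the glutathione transferase gene GSTL1 (−3.315). GSTL1 rose in both genotypes, by 2.58 in uri and 5.90 in wild type. AT5G38820 rose by 4.15 in wild type, and its uri value of 0.36 was not called but passed under 5 of the alternatives.

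Responses above wild type included those of DIR5 (5.887), SEN1 (5.797) and DIN11 (5.73). With 16 added before log2 these became 4.712, 5.58 and 4.762, so their order depends on the offset. Differences above wild type were also found for BCAT-2 (4.542), AT1G19530 (4.333), ATL8 (4.293), JRG21 (4.246), GAT1_2.1 (4.087), UMAMIT33 (4.078) and AT1G72060 (3.921). DIR5 and DIN11 had +Fe levels below the lower quartile in uri.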

How the results depend on the processing

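Of the 264 genes that the naming rule gave, 221 kept direction and call under every alternative applied to single genes. The remaining 43 did not, 39 of these losing a call without some array. Of the 17 alternatives run, reading a gene by its probe set with the lowest mean was applied to list counts only. Of the genes named outside the rule, ILR3 lost its call without 3 single arrays and OPR3 gained one under 2 alternatives. Left-out arrays gave 5161 to 7196 calls in uri, 2339 to 3261 rises and 2804 to 3935 falls, and the other alternatives 6055 to 7553 calls. Left-out arrays gave 2730 to 4727 differences between genotypes and 410 to 1640 calls in wild type, and the other alternatives 4199 to 4953 and 1099 to 1595. Within lists, left-out arrays gave 5 to 8 rises for vacuolar transport, 3 to 5 falls for iron distribution, 3 to 5 falls for iron enzymes, 1 to 6 rises for iron–sulfur and haem genes, 2 to 4 falls for coumarins, 1 to 5 rises for zinc, 3 to 7 for autophagy, 1 to 3 for the Casparian strip and 0 to 2 for heat shock.

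With only the 4 uri arrays fitted, the counts were 3 falls for iron distribution, 3 rises for iron–sulfur and haem genes, 3 for zinc and 0 for heat shock. Centring arrays on their median gave 3 falls for iron distribution and 2 rises each for xylem and phloem and for heat shock. Quantile normalization, and likewise 16 added before log2, gave 1 xylem and phloem rise and 2 heat shock rises. Heat shock rises were also 2 without probe sets below the lower quartile, with limma-trend and robust eBayes, and with the replicate block. DIR6, not called at −0.18, ranged from −0.424 to 0.06 without single arrays, and PRR2, not called at 0.01, from −0.101 to 0.128, with −0.003 without uri −Fe replicate 2 and −0.056 under quantile normalization. The causes were not tested.

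Replicate numbers were taken not to pair the arrays, since there are 2 numbers only. With the replicate number as a block, 6951 probe sets were called in uri and 4199 differed between genotypes. Centring moved the median change of all probe sets from −0.0111 to 0.0562. For 25 of the 2-fold rises and 22 of the 2-fold falls the lower group lay below the lower quartile, which leaves their size uncertain. Background itself was not measured. Promoter motifs were not run.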
